A study of Arabidopsis thaliana with 9 samples.

Results

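AT5G19120, AT2G20670, AT3G15450 and AT3G07350 are 4 Arabidopsis thaliana genes known to rise in low sugar or darkness, out of 13350 genes that the platform annotation names. They were chosen by gene identifier, each has 1 probe set, and they were put together because their signals were already known to be higher in the F1 hybrid than in its parents, so every F1 value below is a description and carries no test. Whole rosettes were sampled 15 days after sowing from plants of Col (Col-0), of C24 and of the F1 (C24 x Col), all grown on MS agar plates at 22 °C under a photoperiod of 12 h and 12 h. Each group had 3 biological replicates, and each replicate was hybridised to its own one-colour Affymetrix array, which gave 9 arrays. The labels name no transgene and no treatment, sugar and darkness included. The sources used here do not give the time of day at harvest, the sugar content of the medium, the number of plants per sample or which line was the seed parent.

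Plants store part of the carbon they fix by day as starch and draw on it at night, and when sugar runs short the protein kinase SnRK1 and bZIP transcription factors raise a set of transcripts for the use of other carbon sources. Genes of that set are kept low by sucrose or glucose and rise in extended darkness, so their level in a leaf follows both its sugar status and the time in the day and night cycle. AT5G19120 encodes a protein of the eukaryotic aspartyl protease family. AT3G15450 encodes a protein of the aluminium-induced family with YGL and LRDR motifs. AT2G20670 and AT3G07350 both encode proteins of the DUF506 family, a plant family named for a conserved domain.

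The values are MAS5 signals, linear intensities with 1 per probe set and array. Median signals ran from 158.5 to 174.4 over the 9 arrays, and log2 signals correlated at 0.977 to 0.983 between replicates (across probe sets, which are no replicates of each other). A difference is given on the log2 scale, where 1 is a doubling, and an adjusted p is from limma, two-sided, with the Benjamini-Hochberg method over 13648 probe sets and a threshold of 0.05. Of the leaf markers named, RCA (Rubisco activase) averaged 36305 ± 4544 in Col against 31676 ± 1238 in C24 and 36793 ± 1791 in F1 (mean ± SD, n = 3 arrays, as everywhere below), and the antenna gene LHCB4.2 averaged 30716 ± 1643 against 21505 ± 892 and 28706 ± 522. Of 3 root markers named, EXPA7 and AT5G17820 were under the filter on low signals, and PYK10 averaged 2726 ± 219 in Col against 92.0 ± 40.5 in C24 and 1985 ± 143 in F1; no flower or seed marker was named. F1 replicate 2 stood apart from the other F1 arrays in the defensin gene PDF1.2 (3617 against 135 and 255), so the differences of the 4 genes are also given without it. That PDF1.2 signal lay within the range of C24 (4409, 3354 and 2928), while Col read 83.7, 62.0 and 91.2. The arrays hold RNA of whole rosettes, in which a change in the share of a cell type and a change in RNA per cell cannot be told apart.

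All 4 genes were at least 2 times as bright on the dimmest F1 array as on the brightest parental array. Their F1 levels were 3.00 to 4.46 times the mid-parent level, the mean of the 2 parental levels, while C24 lay at 0.65 to 1.15 times the Col level. Each gene is given array by array, in the order of the replicate numbers.

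For the aspartyl protease gene AT5G19120 the signals were 606.5, 892.4 and 734.3 in Col, 753.7, 695.99 and 664.7 in C24, and 2448, 1913 and 2146 in F1. Col and C24 overlapped, and every F1 array lay above every parental array, the lowest F1 signal being 2.14 times the highest parental one. The group levels were 744 ± 143 in Col, 705 ± 45.2 in C24 and 2169 ± 269 in F1. The F1 level was higher by 1.55 than in Col and by 1.62 than in C24 (SE 0.14 each), which puts it at 1.58 (SE 0.12) over the mid-parent and at 1.67 without F1 replicate 2. It had the smallest F1 difference from the mid-parent of the 4 genes.

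For AT3G15450 of the aluminium-induced family the signals were 1089, 1143 and 1625 in Col, 1257, 1428 and 1730 in C24, and 4511, 3662 and 4845 in F1. The parents overlapped here too, and the F1 arrays stood apart above them, by 2.12-fold from the lowest F1 to the highest parental array. The levels were 1286 ± 295 in Col, 1472 ± 240 in C24 and 4339 ± 610 in F1. The F1 level was higher by 1.77 than in Col and by 1.56 than in C24 (SE 0.16 each), which is 1.66 (SE 0.13) over the mid-parent and 1.78 without F1 replicate 2. It was the only gene of the 4 whose estimate was higher in C24 than in Col.

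The signals of the DUF506 gene AT2G20670 were 783.6, 764.5 and 605.3 in Col, 575.0, 452.7 and 383.3 in C24, and 3163, 2076 and 2758 in F1. Here the parents did not overlap, since every C24 array was below every Col array, and the lowest F1 signal was 2.65 times the highest parental one. The levels were 718 ± 97.9 in Col, 470 ± 97.1 in C24 and 2666 ± 549 in F1. The F1 level was higher by 1.88 than in Col and by 2.50 than in C24 (SE 0.17 each), with 2.16 (SE 0.15) over the mid-parent and 2.33 without F1 replicate 2, the largest of the 4 genes.

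The second DUF506 gene, AT3G07350, gave signals of 720.2, 624.3 and 629.8 in Col, 412.4, 721.3 and 408.6 in C24, and 2386, 1945 and 1866 in F1. C24 replicate 2 lay above all Col arrays and the other C24 arrays lay below them, so the parents overlapped, while the lowest F1 signal was 2.59 times the highest parental one. The levels were 658 ± 53.8 in Col, 514 ± 179 in C24 and 2066 ± 280 in F1. The gene was higher in F1 by 1.64 than in Col and by 2.05 than in C24 (SE 0.18 each), which is 1.83 (SE 0.16) over the mid-parent and 1.87 without F1 replicate 2.

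**Figure D1:**
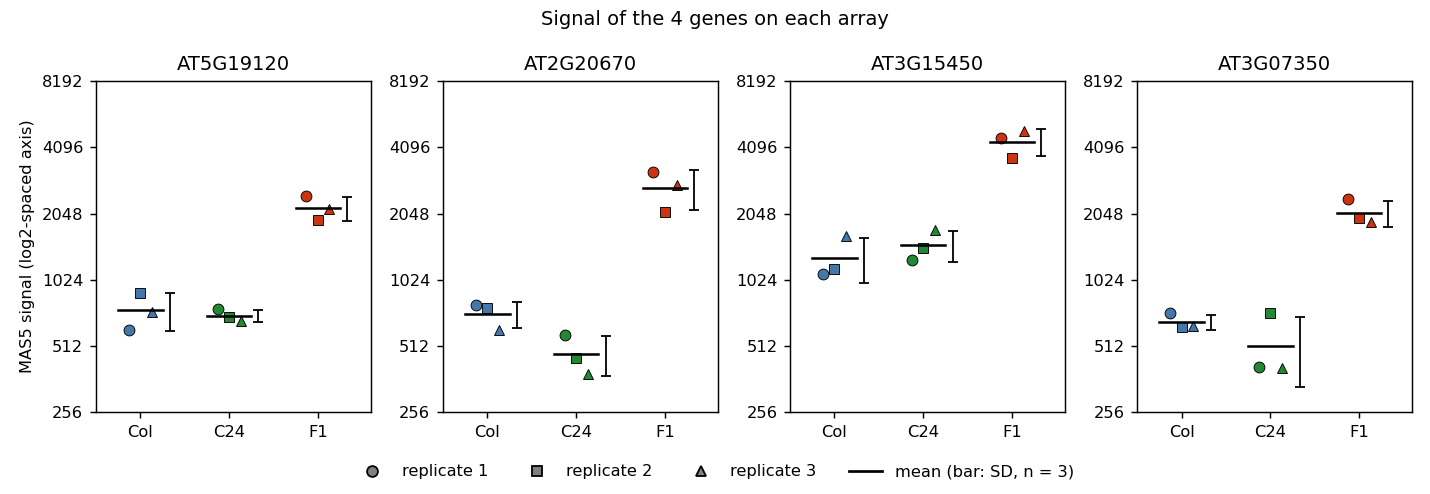
MAS5 signal (log2-spaced axis) of the 4 genes on each of the 9 arrays, by group, with the group mean as a line and the SD as a bar (n = 3). The F1 arrays lie between 1866 and 4845, above every parental array of the same gene, while Col and C24 overlap in all but AT2G20670.

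Every F1 array stood above every parental array in 4 of 4 genes, a pattern found in 2.65% of the 13648 probe sets tested, and the 4 genes were chosen for it. For the F1 comparisons that chose the 4 genes, limma called 11.5% of all probe sets against Col (6.37% higher, 5.08% lower), 14.3% against C24 (7.55% higher, 6.75% lower) and 3.3% against the mid-parent (1.68% higher, 1.62% lower). F1 was called above both parents at once in 0.403% and below both in 0.103%. By size of the F1 difference from the mid-parent the 4 genes ranked 9th (AT2G20670), 12th (AT3G07350), 20th (AT3G15450) and 23rd (AT5G19120) of the 13648 probe sets. The median difference was 1.75 over the 4 genes and -0.03 over all probe sets. The F1 level was above the brighter parent by 1.55 to 1.88.

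**Figure D2:**
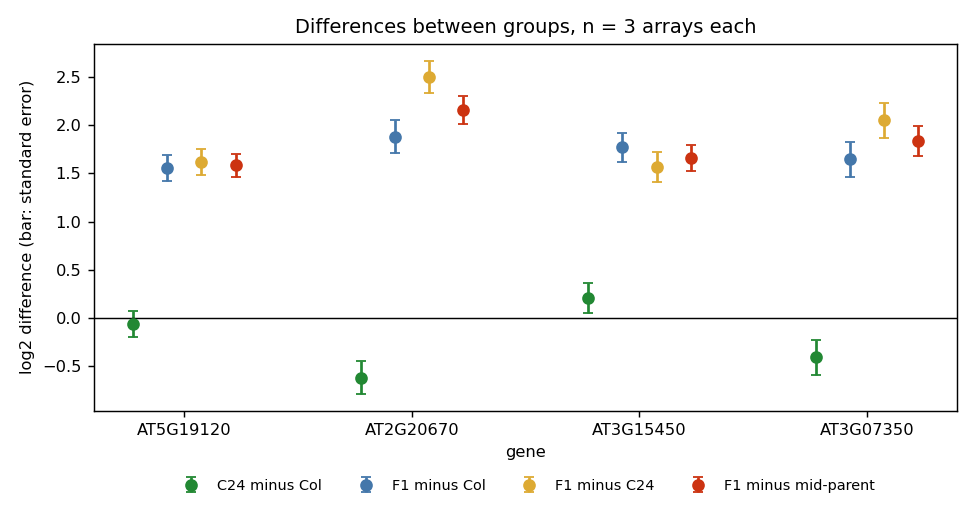
Log2 differences of the 4 genes between groups, with standard errors as bars (n = 3 arrays per group). The 3 differences that involve F1 lie between 1.55 and 2.50 and are descriptions, and the differences of C24 from Col lie between -0.62 and 0.21.

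The comparison of C24 with Col, in which the genes were not chosen, asked whether the inbred parents already differed in them. AT2G20670 was lower in C24, by 0.62 on the log2 scale (SE 0.17, adjusted p = 0.0112), at 0.65 times the Col level. AT3G07350 had a difference of -0.41 (SE 0.18, adjusted p = 0.106), AT3G15450 one of 0.21 (SE 0.16, adjusted p = 0.350) and AT5G19120 one of -0.06 (SE 0.14, adjusted p = 0.771). The 95% intervals of these 3 ran from -0.79 to -0.02, from -0.12 to 0.54 and from -0.35 to 0.23. That of AT2G20670 ran from -0.98 to -0.26. Unlike the adjusted p, these intervals are not adjusted for the number of probe sets tested. In limma 1 of 4 genes passed, where 30.9% of all probe sets tested did (15.2% lower in C24), a share near that background. The call of AT2G20670 was lost without Col replicate 2 (-0.57, adjusted p = 0.0507) and without C24 replicate 3 (-0.48, adjusted p = 0.0579), and over all alternatives its adjusted p ran from 0.00245 to 0.0579. Without C24 replicate 2, the bright array named above, AT3G07350 was at -0.68 (adjusted p = 0.00152). Without Col replicate 2 AT5G19120 was at 0.08 (adjusted p = 0.732). AT3G15450 was at 0.39 without Col replicate 3 (adjusted p = 0.0600) and at 0.08 without C24 replicate 3 (adjusted p = 0.758).

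Apart from the group differences, the question was whether the 4 genes rise and fall together from array to array. Within F1, replicate 1 was the brightest array for AT5G19120, AT2G20670 and AT3G07350 and replicate 3 for AT3G15450, and all 4 genes were above their F1 mean on replicate 1. Replicate 2 was below the F1 mean for all 4 genes and the dimmest F1 array for 3 of them, AT3G07350 being dimmest on replicate 3. In the parents no array had all 4 genes on one side of their group mean. On C24 replicate 2 AT3G07350 was 0.54 above its group mean on the log2 scale while the other genes were below theirs, and on Col replicate 3 AT3G15450 was 0.36 above while the other genes were below.

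**Figure D3:**
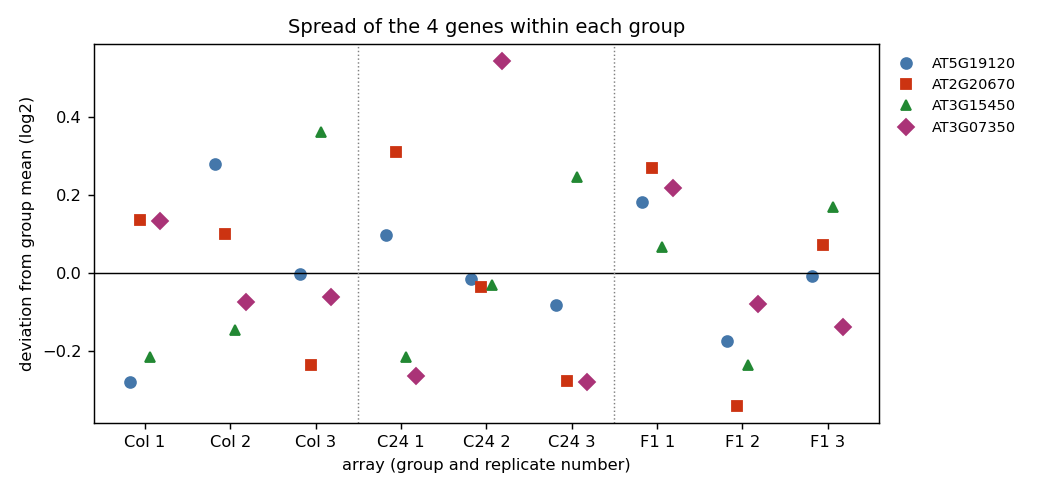
Deviation of each of the 4 genes from its own group mean (log2) on each array. The 4 genes share a side of the mean on F1 replicates 1 (above) and 2 (below), and on no parental array.

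These deviations were correlated over the 9 arrays for each of the 6 pairs of genes, with an exact permutation of arrays within groups (216 arrangements, two-sided). AT5G19120 and AT2G20670 had the highest value, with Pearson's r = 0.47 (exact p = 0.231) and Spearman's rho = 0.50 (exact p = 0.190). AT2G20670 and AT3G15450 had the lowest, with r = -0.36 (exact p = 0.306) and rho = -0.22 (exact p = 0.620). The other r values were 0.15 for the DUF506 pair AT2G20670 and AT3G07350 (rho 0.18), 0.09 for AT5G19120 and AT3G15450 (rho 0.28), -0.04 for AT5G19120 and AT3G07350 (rho 0.05) and -0.13 for AT3G15450 and AT3G07350 (rho -0.08). Their exact permutation p ran from 0.787 to 0.889 for r and from 0.569 to 0.889 for rho. After Benjamini-Hochberg adjustment over the 6 pairs every exact p was 0.889, for r and for rho.

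An r as high as that of AT5G19120 with AT2G20670 was reached with AT5G19120 by 14.1% of all probe sets tested. Without the 2 arrays farthest from the median of the first gene's deviations, that r rose to 0.89 (without Col replicates 1 and 2), and that of AT2G20670 with AT3G15450 went to -0.69 (without C24 replicate 3 and F1 replicate 2). The other 4 values were then 0.06, 0.21, -0.20 and 0.23, in the order AT5G19120 with AT3G15450, AT5G19120 with AT3G07350, AT2G20670 with AT3G07350, and AT3G15450 with AT3G07350. The 6 values thus moved in size and 3 of them changed sign with the arrays used, and a shared rise and fall within groups was not detectable with 9 arrays. A correlation over the 9 arrays without removing the group means is not given for these pairs, because the F1 arrays form a cluster of their own and the genes were chosen for it. The pooled spread of the 4 genes within groups was 0.20 (AT5G19120), 0.27 (AT2G20670), 0.26 (AT3G15450) and 0.30 (AT3G07350) on the log2 scale, against a median of 0.18 over all probe sets tested.

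The other genes of low sugar and darkness were looked at next, from a list of 42, of which the annotation named 11 and all 11 were tested. Against the mid-parent 2 of 11 were higher in F1 and 0 lower in limma (1.68% and 1.62% of all probe sets), and 4 had an unadjusted p under 0.05. AT2G25200 encodes a DUF868 protein, and its signals were 310.6, 231.5 and 280.0 in Col, 376.0, 272.1 and 304.2 in C24, and 640.9, 577.6 and 598.2 in F1. Every F1 array lay above every parental array, with 1.04 (SE 0.13, adjusted p = 0.000178) over the mid-parent, and it was also above both parents at once (adjusted p = 0.0055). AT4G27450, of the aluminium-induced family as is AT3G15450, read 927.7, 1031 and 1094 in Col, 454.2, 550.2 and 615.4 in C24, and 1489, 1447 and 1265 in F1. Its F1 arrays were the brightest as well, at 0.85 (SE 0.11, adjusted p = 0.000241) over the mid-parent, and its parents did not overlap, with C24 lower by 0.92 (adjusted p = 4.42e-05). It did not pass against both parents at once (adjusted p = 0.261). Against each parent alone it passed in limma, with F1 higher by 0.46 than Col (adjusted p = 0.0279) and by 1.38 than C24 (adjusted p = 2.41e-06). Both calls against the mid-parent were kept in the 17 alternatives run.

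The other 9 genes of the list differed from the mid-parent by -0.50 to 0.23, and the median over the 11 was 0.11. The brightest of them were CCL, whose messenger RNA stability is under clock control (12272 ± 1896 in Col, 13442 ± 1008 in C24, 13855 ± 1251 in F1, difference 0.11, adjusted p = 0.596), and AT1G56220, of the dormancy and auxin-associated family (5465 ± 339, 7401 ± 682 and 7591 ± 943, difference 0.23, adjusted p = 0.176). Between the parents 1 gene was higher in C24 and 3 were lower, beside 15.7% and 15.2% of all probe sets. AT1G56220 was higher (0.44), and AT4G27450, AT1G78020 (-0.53) and AT2G05540 (-2.33) were lower, the last pair being named after their values were seen. AKINBETA1, also in the SnRK1 list below, differed by 0.13 from the mid-parent (adjusted p = 0.733). The list was drawn up with earlier results of these arrays known, so its count is no independent evidence of a direction.

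The relatives of the 4 genes were tested by family. The DUF506 list holds 11 genes beside AT2G20670 and AT3G07350, of which 4 were named and 3 tested. AT2G39650 had signals of 95.9, 64.5 and 53.8 in Col, 86.0, 125.7 and 66.5 in C24, and 202.6, 155.0 and 187.5 in F1. On the log2 scale the mean of either parent was under the filter (a signal of 89.9), so the gene passed it only through F1, where it is high, and its values are given with no test and counted for nothing. AT2G38820 averaged 472 ± 139 in Col, 478 ± 147 in C24 and 767 ± 56.1 in F1 and was called higher against the mid-parent (0.73, SE 0.18, adjusted p = 0.0408), as were 1.68% of all probe sets. AT3G22970 averaged 984 ± 22.1 in Col against 384 ± 89.7 in C24 and 947 ± 120 in F1 (0.47, adjusted p = 0.0763), so that its F1 level was near that of Col, and it was lower in C24 than in Col (-1.38, adjusted p = 4.72e-06).

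The call of AT2G38820 was lost in 9 of 17 alternatives, among them the fits without Col replicate 1 or 2, C24 replicate 1 or 3, or any F1 array (adjusted p = 0.0628 to 0.147). Among 4 relatives of AT3G15450, AT4G27450 was higher against the mid-parent, as in the list above, and the other 3 differed by -0.13 to 0.11. AILP1 (AT5G19140) averaged 12770 ± 1441 in Col against 10641 ± 483 in C24 and 12667 ± 1022 in F1, and AT5G43830 averaged 3162 ± 239, 3302 ± 161 and 2955 ± 194. Of the aspartyl protease relatives AT5G19100 was tested (65.8 ± 23.5, 110 ± 37.7 and 125 ± 18.9, difference 0.56, adjusted p = 0.376).

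**Figure D4:**
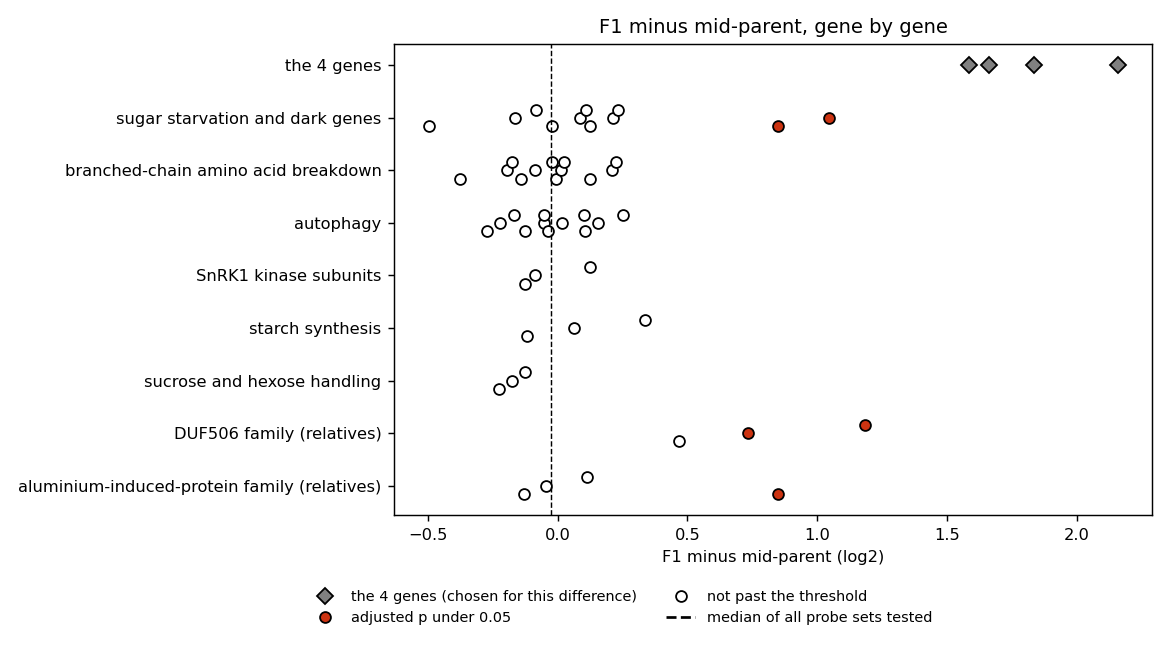
Difference of F1 from the mid-parent (log2) for the 4 genes and for every tested gene of 8 lists, with filled circles where the adjusted p passed 0.05 and a dashed line at the median of all probe sets (-0.03). Filled circles are in the rows of sugar starvation and dark genes, the DUF506 relatives and the relatives of AT3G15450, AT4G27450 being in 2 of these rows. The DUF506 row includes AT2G39650 (1.18), which passed the filter on low signals only through F1, so its filled circle is counted for nothing.

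Other processes that low sugar sets going were read from lists of their own. Branched-chain amino acid breakdown feeds carbon skeletons into respiration, and 0 of its 12 tested genes differed from the mid-parent in limma, nor did 1 have an unadjusted p under 0.05. Over all probe sets 3.3% were called, so a count of 0 in a list this short, here and in the lists that follow, is near the background and is not a result about the list. Their differences ran from -0.37 to 0.23 with a median of -0.01. MCCB, a subunit of methylcrotonyl-CoA carboxylase, averaged 826 ± 131 in Col against 1201 ± 76.7 in C24 and 1177 ± 195 in F1, and ALDH6B2, a dehydrogenase of valine breakdown, averaged 1576 ± 126, 413 ± 21.9 and 1023 ± 202. Both passed between the parents, in opposite directions (0.55 and -1.93), with 1 of the 12 genes higher and 3 lower in C24, beside 15.7% and 15.2% of all probe sets.

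Autophagy recycles cell contents, and 0 of its 12 tested genes passed against the mid-parent in limma (2 at an unadjusted p under 0.05), with a range of -0.27 to 0.25 and a median of -0.04. ATG8F, which encodes an ATG8 protein of the autophagosome membrane, averaged 5792 ± 745 in Col against 4524 ± 321 in C24 and 6124 ± 30.3 in F1 (0.25, adjusted p = 0.124), and APG8H (AT3G15580) differed by 0.10 (adjusted p = 0.659). Of the SnRK1 kinase, 3 subunit genes were tested and 0 passed in limma against the mid-parent or between the parents (0 and 1 at an unadjusted p under 0.05). Their differences from the mid-parent were -0.12 to 0.13, AT2G28060 being at -0.12, and AT4G16360, the beta2 subunit gene, stood at 582 ± 49.5, 647 ± 81.7 and 577 ± 27.6. The trehalose metabolism list of 19 genes had 0 named.

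For carbon status in the other direction, sugar-induced and starch genes were few. APL3, a subunit of ADP-glucose pyrophosphorylase that rises with sugar, averaged 238 ± 28.5 in Col against 141 ± 55.4 in C24 and 237 ± 38.8 in F1. It was lower in C24 than in Col (-0.82, adjusted p = 0.0180), and the difference of F1 from the mid-parent was 0.34 (SE 0.21, adjusted p = 0.462). DFR, an anthocyanin enzyme gene that rises with sugar, stood at 620 ± 55.8, 175 ± 35.4 and 403 ± 66.5, with 0.01 against the mid-parent (adjusted p = 0.980).

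In starch breakdown, the genes PWD (1294 ± 167, 1564 ± 209 and 1597 ± 6.77) and DPE1 (1127 ± 269, 1401 ± 171 and 1535 ± 127) differed from the mid-parent by 0.17 and 0.29 (adjusted p = 0.440 and 0.272). AMY1, the third named gene of the list, was under the filter. Of 3 genes each of starch synthesis and of sucrose and hexose handling 0 passed in limma against the mid-parent, nor at an unadjusted p under 0.05. The starch branching enzyme gene SBE2.2 averaged 2629 ± 37.1 in Col against 1999 ± 200.3 in C24 and 2421 ± 242 in F1. SWEET11, a sucrose exporter gene, averaged 4335 ± 358 in Col against 5278 ± 846 in C24 and 4391 ± 412 in F1. ATSPS4F, a sucrose phosphate synthase gene, stood at 3401 ± 874, 1955 ± 382 and 2337 ± 276, and was lower in C24 than in Col (-0.78, adjusted p = 0.00196). No sugar or starch content was used here, so a difference in carbon status between F1 and its parents was not tested.

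For the time of harvest, the clock genes that the annotation named were looked at. COR27 and AT4G33980, of the list of day and evening clock genes, were under the filter. GI, which peaks late in the day, had signals of 533.2, 544.0 and 596.6 in Col, 825.3, 916.8 and 915.9 in C24, and 666.0, 874.2 and 891.3 in F1. Col lay below the other groups on every array, and F1 was 0.16 from the mid-parent (SE 0.11, adjusted p = 0.518), between the parents. In limma GI was higher than in Col by 0.67 in C24 (adjusted p = 0.000798) and by 0.53 in F1 (adjusted p = 0.0127). F1 differed from C24 by -0.14 (adjusted p = 0.518). AT5G52660, of the list of morning-phased clock genes, averaged 269 ± 48.7 in Col against 316 ± 62.8 in C24 and 311 ± 94.8 in F1 (0.05, adjusted p = 0.925). Within each group GI and CCL were dimmest on replicate 1, with 10132, 12425 and 12476 for CCL in Col, C24 and F1. Of the 4 genes, AT3G15450 was likewise dimmest on replicate 1 in both parents, while AT2G20670 was brightest on replicate 1 in every group. AT5G19120 was dimmest on replicate 1 in Col and brightest on it in C24, and AT3G07350 was brightest on it in Col. In F1 replicate 1 was the brightest array for all of the 4 but AT3G15450.

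The light-responsive gene HYH, a bZIP factor close to HY5, had signals of 314.0, 240.7 and 186.0 in Col, 190.0, 193.3 and 198.1 in C24, and 131.8, 124.3 and 150.4 in F1. It was lower in F1 than the mid-parent (difference -0.69, SE 0.17, adjusted p = 0.0415), and every F1 array was below every parental array, as in 2.31% of all probe sets. That call was lost in 10 of 16 alternatives, 8 of them with 1 array left out, which was any array except Col replicate 3 (adjusted p = 0.0611 to 0.142). Of 9 reference genes of carbon status and the clock, APL3 and GI were the 2 that the annotation named; CCA1, LHY, TOC1, ASN1, SEN1, DIN10 and GPT2 are not analysed here. Among leaf senescence genes SAG29 differed by -0.15 and SAG101 by -0.003 from the mid-parent (adjusted p = 0.898 and 0.997), and the stomatal gene FMA differed by 0.22 (adjusted p = 0.662). SAG101 averaged 85.6 ± 15.2 in Col, 205 ± 28.9 in C24 and 145 ± 21.1 in F1, with F1 between the parents. WRKY53 and WRKY6 of the senescence list were under the filter. Whether harvest time or light before harvest differed between the groups was not tested.

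**Figure D5:**
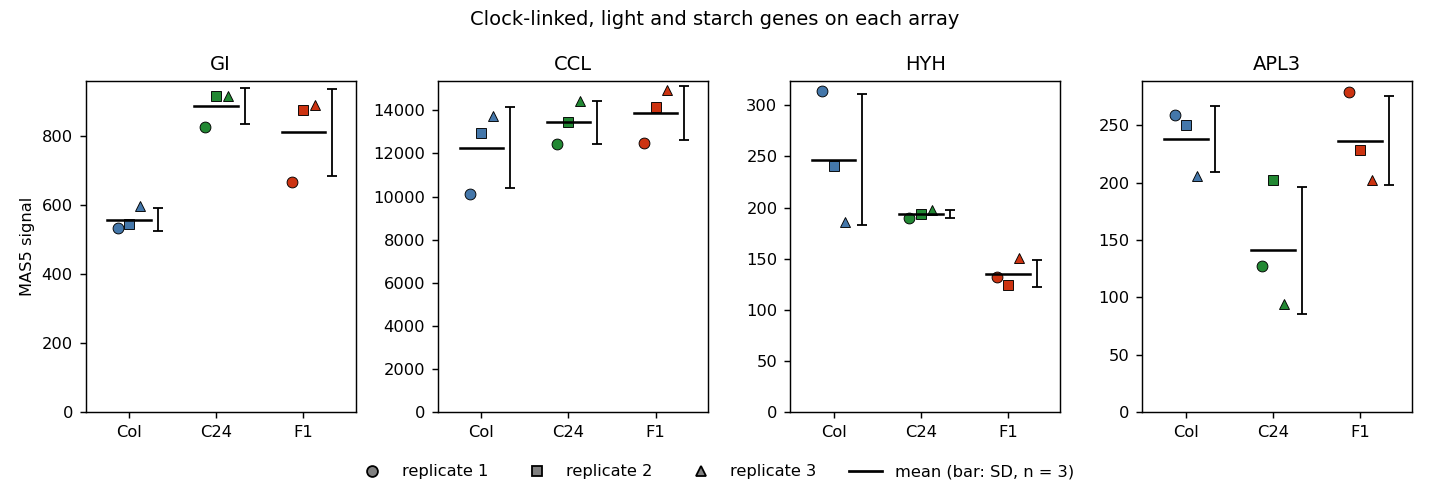
MAS5 signal of the clock gene GI, the clock-controlled CCL, the light-responsive HYH and the starch synthesis gene APL3 on each array, with the group mean as a line and the SD as a bar (n = 3). GI lies lowest in Col, HYH lowest in F1 and APL3 lowest on average in C24, and CCL overlaps between the groups.

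The genes whose log2 signal over the 9 arrays was most like the mean of the 4 genes were AT4G24380 (r = 0.97), AT1G49500 (0.95), AT4G10300 (0.95), PIR121 (0.95), AT3G22240 (0.94), ORA47 (0.94), AT3G57450 (0.94) and AT4G10910 (0.94). These correlations are given as a description over 9 arrays that share the F1 cluster, so they pick genes that are high in F1. They differ in size, from 369 ± 17.8, 362 ± 13.3 and 446 ± 0.214 in Col, C24 and F1 for PIR121, which encodes a subunit of the actin-regulating WAVE complex (0.29 over the mid-parent), to 1078 ± 392, 587 ± 215 and 15270 ± 7165 for AT3G22240 (4.17). AT1G49500 stood at 4932 ± 565, 4970 ± 213 and 8538 ± 756 (0.79), and AT4G24380 at 350 ± 22.9, 307 ± 15.5 and 519 ± 68.1 (0.65). AT3G57450 differed from the mid-parent by 0.92 and AT4G10910 by 1.21. ORA47, a jasmonate-responsive transcription factor gene, stood at 125 ± 29.4, 171 ± 15.7 and 659 ± 83.7 (2.16).

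Taken one at a time, AT5G19120 was most like SAH7 (r = 0.97), AT1G49500 and AT4G24380, and AT2G20670 most like AT4G24380 (0.97), AT4G10300 and HAT2. AT3G15450 was most like AT3G23880 (0.97), ORA47 and PIR121, and AT3G07350 most like AT3G51510 (0.95), HAT2 and AT4G10300. AT4G24380 and AT4G10300 were each among the 3 nearest genes of 2 of the 4, and so was HAT2, an auxin-induced homeobox gene (668 ± 59.3 in Col, 539 ± 26.1 in C24, 886 ± 59.2 in F1). With 1 array left out, 4 to 7 of the 8 genes nearest to the mean of the 4 were still among the nearest 8.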

How the data were processed

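Intensity values were used as deposited: per the submitters' processing notes they are MAS5 signals, with no version or settings in the sources used here. The trimmed mean (2% off either end) was 500.05 on every array, so the deposited arrays share a common mean and each difference is relative to it. Of 22810 probe sets, 64 controls were left out. The platform annotation listed 1 gene for 13513 of the others, several for 503 and none for 8730, and 13436 were matched to a RefSeq gene table (TAIR10.1) for names. Signals were log2-transformed, probe sets with a mean under the 40th percentile (log2 6.49) were left out, and group means were fitted to all arrays (lmFit, eBayes with intensity trend; limma 3.58.1, R 4.3.3). The mid-parent was the mean of both parents' fitted linear levels, with a delta-method error. F1 was set against both parents by the larger of the 2 p-values, adjusted like the rest. Where the 2 differences had opposite signs, the highest possible p was used. The fit was tested on simulated data.

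The 4 genes, the lists and the tests were chosen with earlier results of these data known. Genes named are the 4, every list gene called against the mid-parent or both parents, the 2 brightest others of each list, fixed reference genes and those most like the 4; for lists, the brightest probe set of a gene was used. Arrays give no depth; their number limits the precision. A planned search for promoter motifs was not run, and no sequence is given.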

Additional observations from a re-analysis of the deposited data

How the results depend on the processing

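The F1 differences of the 4 genes moved by less than 1 replicate SD in all 196 recomputed values, and against the mid-parent stayed between 1.49 and 2.33. The filter, the intensity trend and the replicate block cannot move these differences, nor can leaving out an array of a group not compared. The count of 196 is therefore no measure of how stable they are. With 1 array left out, C24 minus Col ran from -0.78 to -0.48 for AT2G20670, from -0.68 to -0.27 for AT3G07350, from -0.20 to 0.077 for AT5G19120 and from 0.084 to 0.39 for AT3G15450. The count of probe sets called against the mid-parent was 264 without an intensity trend and 284 to 420 with 1 array left out (450 in the reported fit), and that of F1 minus Col 999 to 1517 (1563 reported, 999 without Col replicate 2). Median centring gave 1614 higher and 2605 lower for C24 minus Col (2139 and 2081 reported) and 1243 and 722 for F1 minus C24 (1030 and 921); a mid-parent of logs gave 349 and 159 (229 and 221). Of the 3 DUF506 relatives 0 were called with no filter, 1 with the 60th-percentile filter (which removed AT2G39650), 3 with a mid-parent of logs, and 0 to 2 with 1 array left out (2 in the reported fit). Without an intensity trend the 1 call was AT2G39650, and AT2G38820 was not called (limma adjusted p = 0.131). As AT2G39650 passed the filter only through F1, counts that include it are no evidence about the family. With a mid-parent of logs 1 of 12 genes of branched-chain amino acid breakdown was called. By construction, median centring moves all differences between 2 groups (not those from the mid-parent) by the same amount, and a mid-parent of logs never lies above a linear one. The cause of the other shifts was not tested.

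Samples that share a replicate number deviated together weakly (r = -0.0015 to 0.12, 4 of 9 pairs over 0.1), against -0.11 to 0.018 for different numbers. Deviations cancel out within each group, so positive values for the same number go with negative ones for different numbers. The ranges are thus not independent of each other. Of the 9 arrays 7 were closest to their own number in both other groups, so arrays of the same number tended to deviate together. The labels state no pairing by that number, and the reported fit and within-group correlations did not remove this tendency. With the replicate number as a block the counts were 4471, 1844, 2255 and 595 for C24 minus Col, F1 minus Col, F1 minus C24 and F1 minus mid-parent, and no call on the 4 genes changed. Within-group correlations then changed sign for AT2G20670 with AT3G15450 (0.075) and AT3G15450 with AT3G07350 (0.66, permutation p = 0.139). Arrays were permuted within groups before the block was removed, so that p is not exact if arrays of the same number deviate together. AT5G19120 with AT3G07350 turned to 0.0082 after median centring and to 0.05 as rho. With 1 array left out the ranges were -0.31 to 0.44 for AT5G19120 with AT3G15450, -0.25 to 0.16 for AT5G19120 with AT3G07350, -0.10 to 0.54 for AT2G20670 with AT3G07350, -0.38 to 0.12 for AT3G15450 with AT3G07350, 0.28 to 0.93 for AT5G19120 with AT2G20670 and -0.93 to -0.09 for AT2G20670 with AT3G15450. No adjusted p of these fell under 0.0833.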
